A study of Lupinus micranthus with 18 samples.

Results

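The comparison described here sets leaves of Lupinus micranthus seedlings raised from Iceland seeds against leaves of seedlings raised from America seeds, both after 24 h of drought imposed with polyethylene glycol (PEG). Its members are the 3 Iceland and the 3 America libraries at 24 h, chosen by their labels, 6 of the 18 libraries of the series. The other 12 libraries, 3 for each origin without treatment and 3 for each origin after 72 h of PEG, served to show how the same transcripts stood under other conditions. All were total RNA of leaves, and seed origin was the sole label that parted the groups compared. The labels give neither seedling age, PEG concentration, plants per library nor how many seed lots stand for an origin, so that origin, seed lot and growing batch cannot be told apart. Nor do they state if a replicate was its own plant, so that p-values reflect how much these libraries varied, and that variation may be technical.

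PEG in the medium holds water back from roots while hardly entering the tissue, and it is widely used to impose drought on seedlings. Leaves short of water close their stomata, cut back photosynthesis and growth, and accumulate protective proteins and solutes, largely under the hormone abscisic acid. Lupins are legumes, and plants from different seed sources of 1 species can differ both in transcripts they always carry and in how they answer drought. The deposited table counts reads on unigenes, units that stand for transcripts in a plant for which no reference genome was used here. The files do not pair unigene identifiers with gene names, so the results are given for classes of unigenes set by the size of the difference, the level and the length, and for 4 identifiers chosen by a rule. For the same reason the leaf label was not checked against marker genes. In whole leaves a smaller number of cells of a type and less RNA per cell cannot be told apart.

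The table lists 81470 unigenes, of which 30895 were tested after a filter on low counts. Library totals ranged from 9603068 to 12216088 counts at 24 h, and 3 counts, the limit that a count of 0 allows, came to between 0.23 and 0.306 CPM in a single 24 h library (CPM, a count divided by the TMM-scaled total of its library, in parts per 10 to the power of 6). Such limits cover counting error only. Across unigenes, log2 CPM correlated at 0.919 to 0.957 between Iceland libraries, at 0.943 to 0.964 between America libraries and at 0.875 to 0.888 between origins, values that describe these libraries and share the scaling. The biological coefficient of variation within a group was 0.349 in Iceland leaves and 0.345 in America leaves at 24 h. No 24 h library stood apart by its mean correlation with its own group, which was 0.93 to 0.949 in Iceland and 0.944 to 0.955 in America. By the share of counts held by the 100 most counted unigenes, America 24 h replicate 3 lay apart from its group, at 18.4% against 23.2% and 22.5%, and its counts differed more from those of the other 2 (chi-square per unigene 36.6 and 39.8, against 13.2 between these). Without it 2986 unigenes passed at 24 h, against 4298 with it. Among the untreated libraries, Iceland replicate 3 differed from its group in the same share, at 24.1% against 31.9% and 32.6%, and the counts of calls that rest most on it are also given without it.

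After 24 h of PEG, leaves of the 2 origins differed in 4298 unigenes, 13.9% of those tested (edgeR's quasi-likelihood test, adjusted p under 0.05). Of these, 2456 (7.95% of those tested) were higher in Iceland leaves and 1842 (5.96%) were lower. Of the higher unigenes, 82.3% were at least 2-fold higher, 67.5% at least 4-fold and 43.3% at least 8-fold, whereas 68.7% of the lower ones were at least 2-fold lower, 39.7% at least 4-fold and 25.7% at least 8-fold. At 16-fold and more the order was the other way, with 16.7% of the higher and 18.9% of the lower unigenes. The median log2 fold change was 2.83 for the unigenes higher in Iceland and -1.54 for those lower, against -0.05 over all tested. With the unigenes that had no counts in 1 origin set at the bound given by 3 counts over the group, 166 of the higher and 146 of the lower, these medians were 2.82 and -1.53. The 3 Iceland libraries did not overlap with the 3 America libraries in 33.4% of the tested unigenes, all above in 16.6% and all below in 16.8%. For comparison, 5.08% of the tested unigenes differed between origins in untreated leaves and 13.2% at 72 h, and libraries did not overlap in 21% without treatment and 38.9% at 72 h. The count of calls depended on single libraries: it was 2408 without Iceland replicate 1, 2408 without Iceland replicate 2, 2525 without America replicate 1 and 2198 without America replicate 2. It was 2842 when the 6 libraries were fitted alone, and no call changed direction in any of these refits.

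Unigenes higher in Iceland leaves fell into 2 ranges of size. One lay below 4-fold: 363 unigenes had a log2 fold change between 0.5 and 1, and the number per step of 0.5 dropped to 140 between 1.5 and 2. The other lay around 8-fold, with 424 unigenes between 2.5 and 3 and 445 between 3 and 3.5. Unigenes lower in Iceland showed no such second range around 8-fold. After 80 below 0.5, their numbers went down in each step from 497 between 0.5 and 1 to 49 between 3.5 and 4. They were 56 and 62 in the next 2 steps, and lay between 31 and 41 per step from 5 to 7.5. In all, 1249 unigenes were 4- to 16-fold higher in Iceland, 50.9% of the higher ones, against 383 that were 4- to 16-fold lower, 20.8% of the lower ones. These shares describe how the calls are spread and carry no test, because the size classes were cut on the 24 h values.

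**Figure D1:**
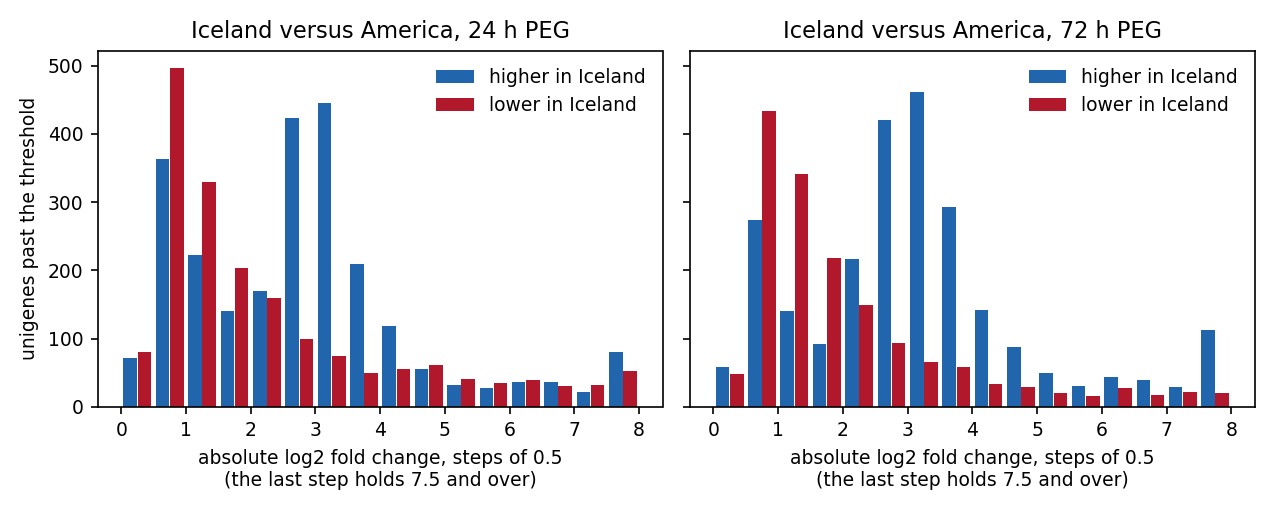
Number of unigenes past the threshold (vertical axis) by the absolute log2 fold change of Iceland over America in steps of 0.5 (horizontal axis), at 24 h on the left and at 72 h on the right, with blue bars for unigenes higher in Iceland and red bars for those lower. The blue bars have a second peak between 2.5 and 3.5 at both times (424 and 445 unigenes at 24 h, 421 and 462 at 72 h), and the red bars are tallest between 0.5 and 1 (497 and 434 unigenes).

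The same shape stood in the 72 h libraries, whose values do not enter the fold change at 24 h. Of 2491 unigenes higher in Iceland at 72 h, 1392 (55.9%) were 4- to 16-fold higher, and of 1592 lower, 365 (22.9%) were 4- to 16-fold lower. Without treatment both directions were alike in this, at 215 of 848 higher unigenes (25.4%) and 176 of 723 lower ones (24.3%). The tested unigenes were also divided into 4 equal classes by mean CPM over the 6 groups. Counting all of them in the class with the fewest counts, called or not, 16.5% were 4- to 16-fold higher in Iceland and 6.8% were 4- to 16-fold lower at 24 h. In that class the shares were 18.5% and 8.23% at 72 h, and 6.72% and 6.15% without treatment. In the class with the most counts they were 0.427% higher and 0.57% lower at 24 h. The mean CPM that set these classes includes the Iceland values under PEG. A low unigene can also pass the filter through the group in which it is high. The shares of the lowest class are thus not free of selection, and they carry no test.

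The 1249 unigenes that were 4- to 16-fold higher in Iceland at 24 h were mostly of low level. Of them, 716 lay in the class with the fewest counts and 434 in the next, together 92.1%. Their counts were summed for each library. Together they took 8740, 8670 and 9270 CPM in the 3 Iceland libraries at 24 h, against 1340, 1210 and 1450 CPM in the America libraries. The median member had 2.58, 2.53 and 2.35 CPM in the Iceland libraries at 24 h and 0.347, 0.23 and 0.364 CPM in the America libraries, the last 3 near the value of 3 counts. Replicates of a group were close to each other and the groups lay far apart, which the choice of the class fixes at 24 h.

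The 72 h and untreated libraries played no direct part in that choice, although they entered the same fit. At 72 h the class was again high in Iceland. Its sum was 6880, 9680 and 7910 CPM in Iceland leaves at 72 h, against 1930, 2060 and 2080 CPM in America leaves at 72 h. Without treatment it was 4020, 3900 and 4130 CPM in Iceland leaves, against 1320, 2150 and 1810 CPM in America leaves. The Iceland and America sums did not overlap under any treatment. Median members stood closer together without treatment than their sums did, at 0.61, 0.587 and 0.501 CPM in Iceland leaves and 0.177, 0.623 and 0.42 CPM in America leaves, where the groups overlapped. These are low levels in both origins, as 3 counts came to between 0.266 and 0.352 CPM in an untreated library. The median log2 fold change of the class was 0.58 without treatment and 2.99 at 72 h (quartiles 2.47 and 3.46), beside 0.03 and -0.03 over all tested unigenes.

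At the level of single unigenes, 1001 of the 1249 (80.1%) passed the test in the same direction at 72 h, where 8.06% of all tested unigenes were higher in Iceland. That count was 608 without Iceland 72 h replicate 2, 618 without America 72 h replicate 1 and 647 without America 72 h replicate 3. In these refits 3.48%, 3.62% and 3.99% of all tested unigenes were higher in Iceland. In untreated leaves 73 of the 1249 (5.84%) passed, where 2.74% of all tested unigenes were higher in Iceland. Without untreated Iceland replicate 3 it was 87 (6.97%), beside 3.79% of all tested unigenes. It was 41 without untreated Iceland replicate 2, beside 1.34%. It was 35, 39 and 40 without untreated America replicates 1, 2 and 3, beside 1.24%, 0.922% and 1.28%. Median members had few counts in both origins without treatment, so a missing call there does not show that the origins were alike. All 3 Iceland libraries lay above all 3 America libraries at 72 h in 1146 of the 1249 (91.8%), against 19.5% of all tested unigenes. Without treatment they did so in 173 (13.9%), against 10.5%. Low unigenes can enter the tested set through the 1 group in which they are high, which was not undone here, and with no filter on low counts 1163 unigenes were 4- to 16-fold higher. The size of the class moved with single 24 h libraries: it was 593 without America replicate 2, 685 without America replicate 1, 765 without America replicate 3, 803 without Iceland replicate 1 and 801 without Iceland replicate 2.

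**Figure D2:**
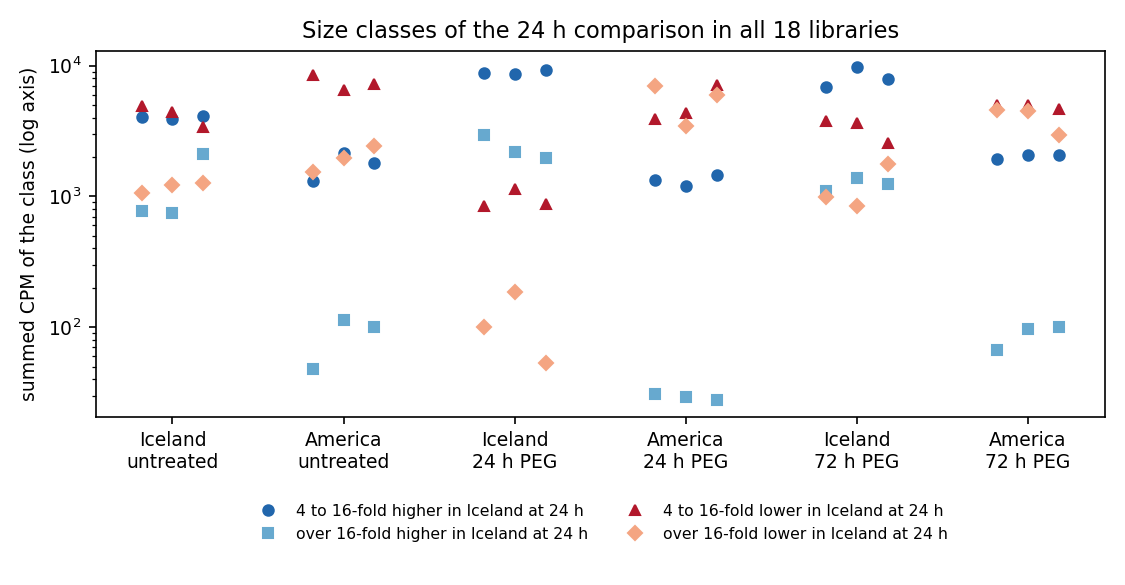
Summed CPM (log axis) of 4 size classes of the 24 h comparison in each of the 18 libraries (1 point per library, 3 per group), with blue symbols for classes higher in Iceland at 24 h and red or orange symbols for classes lower. The class 4- to 16-fold higher in Iceland at 24 h (dark blue circles) stands at 8670 to 9270 CPM in Iceland leaves at 24 h and at 6880 to 9680 CPM in Iceland leaves at 72 h, and between 1210 and 2150 CPM in all America libraries.

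The 383 unigenes that were 4- to 16-fold lower in Iceland at 24 h were summed in the same way. Their sum was 851, 1130 and 880 CPM in Iceland leaves at 24 h, against 3910, 4340 and 7040 CPM in America leaves, with America replicate 3 the highest. At 72 h it was 3800, 3610 and 2560 CPM in Iceland leaves, against 4960, 4960 and 4640 CPM in America leaves. Without treatment it was 4910, 4390 and 3410 CPM in Iceland leaves, against 8520, 6550 and 7180 CPM in America leaves. The Iceland libraries were thus below the America libraries under each treatment, and the choice of the class fixes that the gap was widest at 24 h. Of these unigenes, 98 (25.6%) passed in the same direction at 72 h, where 5.15% of all tested unigenes were lower in Iceland. That count was 39 without Iceland 72 h replicate 2 and 42 without Iceland 72 h replicate 1, beside 1.42% and 1.87% of all tested unigenes. Leaving out another 72 h library gave 54 to 74, beside 2.19% to 4.83%. All Iceland libraries lay below all America libraries at 72 h in 205 of the 383 (53.5%), against 19.4% of all tested unigenes. Without treatment 54 (14.1%) passed, where 2.34% were lower. Without untreated Iceland replicate 3 it was 59 (15.4%), beside 4.01% of all tested unigenes. It was 32 and 27 without untreated Iceland replicates 1 and 2, and 35, 33 and 37 without untreated America replicates 1, 2 and 3. In these refits between 0.761% and 1.33% of all tested unigenes were lower. The median log2 fold change of the 383 was -1.24 at 72 h and -0.73 without treatment.

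Differences of more than 16-fold were found for 409 unigenes higher in Iceland and 349 lower. America had no counts at 24 h in 166 of the higher set, and Iceland had none in 146 of the lower set, so that fitted values depend on a prior count there. At the bound of 3 counts over the group, 341 were more than 16-fold higher and 273 more than 16-fold lower. The 409 summed to 2920, 2190 and 1980 CPM in Iceland leaves at 24 h, against 30.6, 29.2 and 27.8 CPM in America leaves. At 72 h they summed to 1100, 1390 and 1250 CPM in Iceland leaves, against 67.5, 97.5 and 101 CPM in America leaves. In untreated Iceland leaves the sums were 774, 752 and 2120 CPM, the last in the replicate that stood apart, against 48.3, 114 and 99.8 CPM in untreated America leaves. The 349 summed to 100, 186 and 53.4 CPM in Iceland leaves at 24 h, against 6920, 3480 and 5930 CPM in America leaves. Their sums at 72 h were 989, 843 and 1770 CPM in Iceland leaves, against 4540, 4520 and 2940 CPM in America leaves. Without treatment those sums were 1060, 1230 and 1270 CPM in Iceland leaves, against 1540, 1970 and 2410 CPM in America leaves, the closest pair of groups of the 3 treatments.

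Called differences of smaller size lay in unigenes with more counts. A small difference in few counts seldom passes the test, so this describes the calls and not all unigenes. Of the 435 unigenes that were higher in Iceland by less than 2-fold, 315 were in the class with the highest mean CPM, and they summed to 65200, 57600 and 58500 CPM in Iceland leaves at 24 h, against 39300, 37300 and 36200 CPM in America leaves. The 577 that were lower by less than 2-fold summed to 19200, 20000 and 19500 CPM in Iceland leaves, against 31400, 32700 and 31900 CPM in America leaves. In both directions the summed level of these unigenes was thus above that of the classes of larger differences. Such sums are levels and do not measure the gap between origins. The 363 unigenes 2- to 4-fold higher summed to 28000, 21900 and 22900 CPM in Iceland leaves at 24 h, against 10000, 9000 and 10700 CPM in America leaves. The 533 that were 2- to 4-fold lower summed to 6200, 6890 and 6410 CPM in Iceland leaves, against 15700, 15600 and 17700 CPM in America leaves. At 72 h, 83 of the 435 (19.1%) and 147 of the 577 (25.5%) passed in the same direction, against 8.06% and 5.15% of all tested unigenes. Leaving out single 72 h libraries gave 36 to 69 of the 435, beside 3.62% and 7.62% of all tested unigenes in those refits. It gave 66 to 138 of the 577, beside 1.42% and 4.83%.

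The share of differences at 24 h that was also found in the other libraries varied among the classes of direction and size. Whether the classes differ in this was not tested, and size goes with level: 92.1% of the class 4- to 16-fold higher lay in the 2 classes of fewest counts, against 2.3% of the class higher by less than 2-fold. Taking all sizes together, 1431 of the 2456 unigenes higher in Iceland at 24 h (58.3%) were also higher at 72 h, which is 57.4% of those higher at 72 h, where 8.06% of all tested unigenes were higher. For the lower unigenes it was 501 of 1842 (27.2%), or 31.5% of those lower at 72 h, where 5.15% of all tested unigenes were lower. With untreated leaves the overlap was 248 (10.1% of the higher at 24 h, 29.2% of the higher untreated) and 257 (14% of the lower at 24 h, 35.5% of the lower untreated), where 2.74% of all tested unigenes were higher and 2.34% lower. Few unigenes passed in opposite directions: 10 of the higher and 8 of the lower at 72 h, and 14 and 9 without treatment. Both untreated and 72 h leaves showed the same call for 147 higher and 152 lower unigenes. Calls in the same direction at 24 h and at 72 h, but not in that direction without treatment, were found for 1284 of the higher (52.3%) and 349 of the lower (18.9%). For 924 of the higher (37.6%) and 1236 of the lower (67.1%), neither untreated nor 72 h leaves showed a call in the direction of 24 h. A missing call does not show that the origins were alike: the median log2 fold change of the 924 was 0.46 at 72 h and 0.27 untreated, and that of the 1236 was -0.42 at 72 h and -0.19 untreated. The 1932 shared calls with 72 h came to 1284 without Iceland 24 h replicate 1, 1193 without Iceland 24 h replicate 2, 1276 and 1069 without America 24 h replicates 1 and 2, 988 without Iceland 72 h replicate 2, and 1079, 1234 and 1207 without America 72 h replicates 1, 2 and 3. The 505 shared calls with untreated leaves came to 304 without Iceland 24 h replicate 2, 318 and 300 without America 24 h replicates 1 and 2, 291 and 279 without untreated Iceland replicates 1 and 2, and 298, 255 and 303 without untreated America replicates 1, 2 and 3. Without untreated Iceland replicate 3 they came to 669, where 3.79% of all tested unigenes were higher in untreated Iceland leaves and 4.01% lower.

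**Figure D3:**
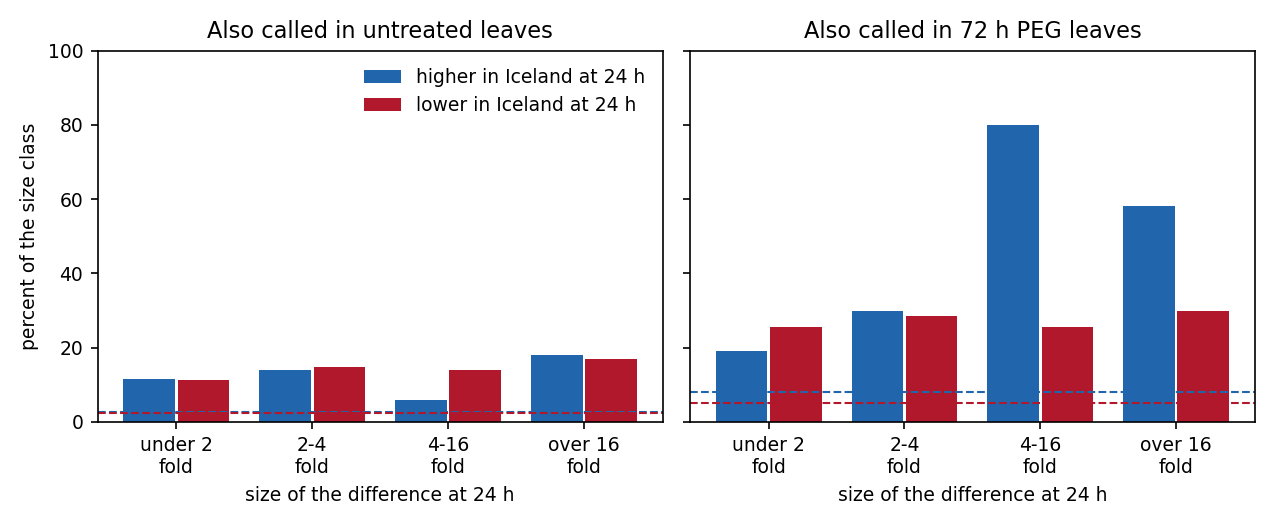
Percent of each size class of the 24 h comparison that passed the test in the same direction in untreated leaves (left) and at 72 h (right), with blue bars for unigenes higher in Iceland and red bars for those lower, and dashed lines for the percent of all tested unigenes called in that direction. The class 4- to 16-fold higher stands at 80.1% at 72 h and at 5.84% without treatment, and the other bars lie between 11.3% and 58.2%. Median members of that class had few counts in both origins without treatment.

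Whether the gap between origins at 24 h was itself unlike that in other leaves was tested in the same fit. Against untreated leaves the gap differed in 266 unigenes (0.861% of those tested), with 150 (0.486%) shifted towards Iceland at 24 h and 116 (0.375%) towards America. Without untreated Iceland replicate 3, the library that stood apart, 952 unigenes passed, and without untreated America replicate 1, 2 or 3 the count was 437, 29 or 143. The 150 had a median log2 fold change of 2.11 at 24 h and -0.41 untreated, and the 116 had -1.06 at 24 h and 0.85 untreated. These sets were chosen by the same difference, so that their medians describe the choice. Calls in opposite directions at 24 h and untreated were found for 14 of the 150 and 9 of the 116. Of the 1249 unigenes that were 4- to 16-fold higher at 24 h, 69 were among the 266. The class was cut on the 24 h values that also enter this test, so that the choice favours such calls. Against 72 h leaves the gap differed in 25 unigenes (0.0809%), with 9 (0.0291%) shifted towards Iceland and 16 (0.0518%) towards America. The 16 had a median log2 fold change of -3.01 at 24 h and 0.64 at 72 h, and the 9 had 1.56 at 24 h and -0.89 at 72 h. Medians of these sets too describe the choice. Opposite calls at 24 h and 72 h were found for 2 of the 16 and 3 of the 9. At an unadjusted p under 0.05, 5253 unigenes passed against untreated leaves and 3288 against 72 h leaves.

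Calls also varied with the level of a unigene. Mean CPM measures the counts behind a value and not transcripts per length. In the lowest class (0.171 to 1.38 CPM) 13.4% were higher in Iceland at 24 h and 4.75% lower. In the second class the shares were 8.32% higher and 5.42% lower. In the third (5.87 to 22.7 CPM) the order was the other way, with 4.18% higher and 7.72% lower, and in the highest class 5.9% were higher and 5.96% lower. The median absolute log2 fold change of the called unigenes was 3.48 in the lowest class and 0.78 in the highest. Where counts are few, small differences seldom pass the test, so these medians do not show that true differences were smaller in the highest class. Mean CPM includes the 24 h values themselves, and a low unigene can pass the filter through the group in which it is high. Shares by level therefore describe the calls and carry no test.

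The length of a unigene, implied by its count and FPKM, was known for 30692 of the tested unigenes. Called unigenes had a median of 1367 bases for those higher in Iceland, 1370 for those lower and 1358 for all tested. By 4 equal classes of length, 6.49%, 9.29%, 9.62% and 6.49% were higher in Iceland from the shortest class to the longest. The share that was lower was nearly flat, at 5.86%, 5.97%, 6.09% and 6.05%.

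**Figure D4:**
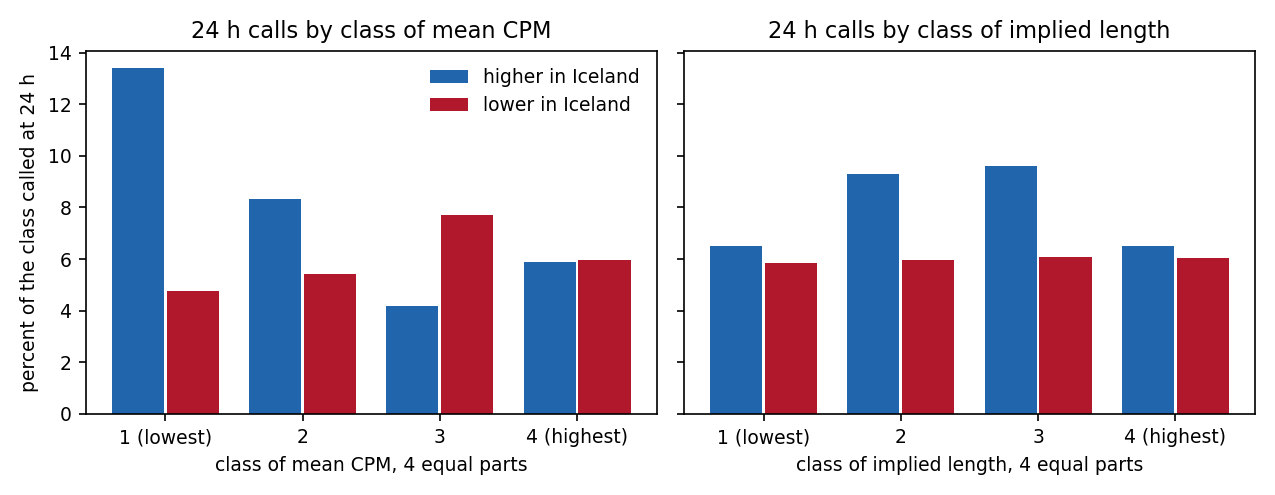
Percent of tested unigenes called at 24 h in 4 equal classes of mean CPM (left) and of implied length (right), with blue bars for unigenes higher in Iceland and red bars for those lower. Higher calls go from 13.4% in the class of lowest mean CPM to 4.18% in the third class, and lower calls lie between 4.75% and 7.72%. The mean CPM that sets the classes includes the 24 h values.

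Some unigenes were seen in 1 origin alone at 24 h. With at least 1 CPM in each of the 3 libraries of an origin and 0 counts in all 3 of the other, 54 were present in Iceland and 42 in America. The 54 had a median of 3.55 CPM in Iceland leaves, 13 of them had at least 10 CPM, and together they held between 0.0794% and 0.0919% of the counts of an Iceland library. The 42 had a median of 2.77 CPM in America leaves, 6 had at least 10 CPM, and together they held between 0.02% and 0.0243% of the counts of an America library. In 30 of the 54 (55.6%), America had 0 counts in all 9 of its libraries, and in 6 of the 42 (14.3%) Iceland had 0 counts in all 9. The same pattern of presence and absence stood at 72 h for 17 of the 54 and 4 of the 42, and without treatment for 5 of the 54 and 1 of the 42. Of the 54, 11 had 0 counts in untreated Iceland leaves, and none had 0 counts in all 3 Iceland libraries at 72 h. Of the 42, 2 had 0 counts in untreated America leaves and none at 72 h. Under the same definition 51 were present in Iceland and 44 in America without treatment, and 85 and 49 at 72 h. The numbers at 24 h follow the definition and the libraries: with 2 libraries in an origin they were 108 and 90 without Iceland replicate 1, 142 present in Iceland without Iceland replicate 3, and 82 and 72 without America replicate 3.

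The most counted unigenes differed about as often as others. Of the 100 with the largest mean share of counts, 8 were higher in Iceland at 24 h and 4 lower, 3 and 2 of them by at least 2-fold, and their median log2 fold change was 0.05. Of the 500 most counted, 36 were higher and 22 lower, which is near the shares over all tested unigenes, 7.95% and 5.96%. The 100 held 23.1%, 23.6% and 24.1% of the counts in Iceland leaves at 24 h, against 23.2%, 22.5% and 18.4% in America leaves. America replicate 3 was the low one, and the groups overlapped. The difference of 2.2 points did not pass an exact permutation test (two-sided p = 0.2, n = 3 each, where 0.1 is the smallest possible), and it was 0.716 points without America replicate 3. At an equal depth of 9603068 counts, 46486, 47916 and 45826 unigenes had at least 1 count in Iceland leaves at 24 h, against 45690, 45192 and 46487 in America leaves. These groups overlapped too, with a difference of 953 unigenes (exact permutation test, two-sided p = 0.3, n = 3 each); it was 366 without Iceland replicate 2.

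Of the unigenes past the threshold, 824 higher and 1013 lower in Iceland also had at least 10 counts in all 6 libraries, a mean of at least 5 CPM in 1 origin and no overlap between origins, and the rule named 2 in each direction. Unigene0002609, implied length 594 bases, was the most counted of those higher. It had 8840, 7270 and 7920 CPM in Iceland leaves at 24 h, against 5760, 5050 and 3630 CPM in America leaves (log2 fold change 0.73 ± 0.20 SE, edgeR adjusted p = 0.0244). All Iceland libraries lay above all America libraries. At 72 h it had 4690, 4770 and 3790 CPM in Iceland leaves, against 4960, 3990 and 3460 CPM in America leaves, where the groups overlapped. Without treatment it had 5800, 6130 and 4850 CPM in Iceland leaves, against 4070, 4160 and 4250 CPM in America leaves, without overlap but short of the threshold (edgeR adjusted p = 0.241). The gap at 24 h was not shown to differ from that at 72 h (log2 difference 0.64 ± 0.28 SE, edgeR adjusted p = 0.437). Its call was lost when the 6 libraries were fitted alone (adjusted p = 0.114), and without Iceland replicate 1 (adjusted p = 0.08), Iceland replicate 3 (0.0515), America replicate 2 (0.0607) or America replicate 3 (0.0789).

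Unigene0077649, implied length 1830 bases, had the largest fold change of those higher. It stood at 154, 140 and 7.76 CPM in Iceland leaves at 24 h, against 5.47, 6.83 and 4.64 CPM in America leaves (log2 fold change 4.15 ± 1.18 SE, edgeR adjusted p = 0.0304). Iceland replicate 3 lay close above the America libraries and far below the other two. The same spread was seen at 72 h, with 0.507, 29.5 and 82.7 CPM in Iceland leaves, against 1.67, 3.64 and 5.21 CPM in America leaves, where the groups overlapped. Without treatment it had 58.2, 25 and 141 CPM in Iceland leaves, against 5.23, 3.53 and 4.93 CPM in America leaves, a log2 fold change of 4.03 ± 1.19 (SE) that did not pass by edgeR (adjusted p = 0.0639). The 9 America libraries thus lay between 1.67 and 6.83 CPM, and the 9 Iceland libraries between 0.507 and 154 CPM. The call at 24 h was lost with limma-voom (adjusted p = 0.193). It was also lost without Iceland replicate 1 (edgeR adjusted p = 0.0791), Iceland replicate 2 (0.0739), America replicate 1 (0.0929), America replicate 2 (0.0862) or America replicate 3 (0.0897).

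Unigene0011899, implied length 1415 bases, was the most strongly lower. It had 44.8, 142 and 26.5 CPM in Iceland leaves at 24 h, against 4860, 1720 and 3830 CPM in America leaves (log2 fold change -5.60 ± 1.20 SE, edgeR adjusted p = 0.00849). The lowest America library was more than 10-fold above the highest Iceland library. At 72 h it had 197, 259 and 1130 CPM in Iceland leaves, against 2830, 2870 and 1560 CPM in America leaves, still without overlap but short of the threshold (log2 fold change -2.20 ± 1.03 SE with adjusted p = 0.172 by edgeR). Without treatment it had 15.8, 13.9 and 312 CPM in Iceland leaves, against 129, 410 and 258 CPM in America leaves, where the groups overlapped. The gap at 24 h differed from that without treatment by -4.39 ± 1.46 SE on the log2 scale, which did not pass (edgeR adjusted p = 0.144). Its call at 24 h was kept in each refit that was run.

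Unigene0068759, implied length 1712 bases, was the most counted of those lower. It had 1030, 1120 and 1010 CPM in Iceland leaves at 24 h, against 1830, 2060 and 1430 CPM in America leaves (log2 fold change -0.75 ± 0.17 SE, edgeR adjusted p = 0.00938). The difference was as large at 72 h, with 534, 667 and 653 CPM in Iceland leaves, against 1060, 1250 and 1040 CPM in America leaves (edgeR log2 fold change -0.85 ± 0.17 SE, adjusted p = 0.00464). Without treatment it had 790, 722 and 971 CPM in Iceland leaves, against 752, 843 and 862 CPM in America leaves, a log2 fold change of 0.02 ± 0.16 (SE) that did not pass by edgeR (adjusted p = 0.981). The origins were thus separate under PEG at both times and overlapped without it, while the change of the gap against untreated leaves did not pass (log2 difference -0.77 ± 0.23 SE, edgeR adjusted p = 0.117). At 24 h the call was lost when the 6 libraries were fitted alone (adjusted p = 0.0536).

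**Figure D5:**
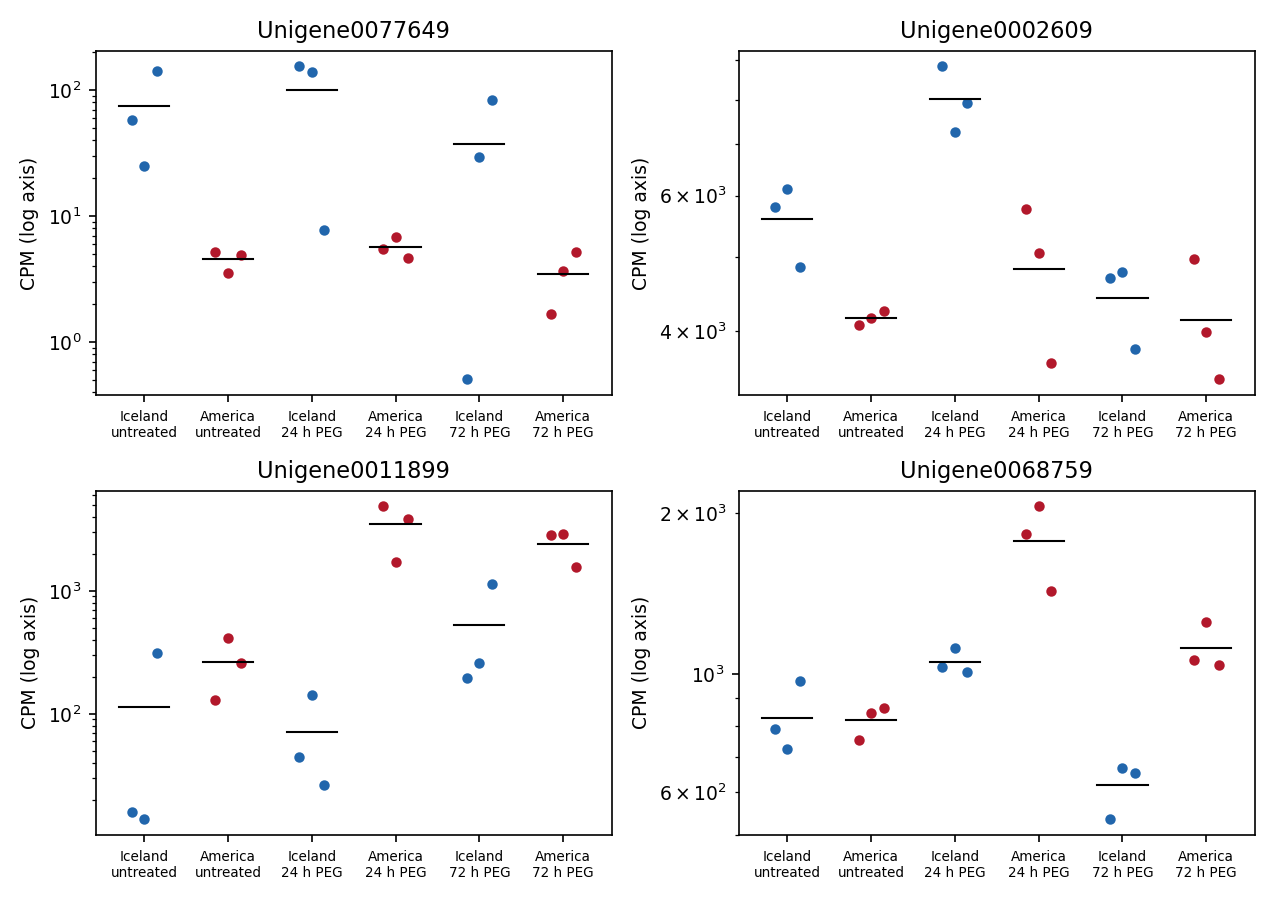
CPM (log axis) of the 4 named unigenes in each library, with blue points for Iceland, red points for America and black lines for the mean of 3 libraries. In the lower panels the points of Unigene0011899 at 24 h lie at 26.5 to 142 CPM in Iceland leaves and at 1720 to 4860 CPM in America leaves, and those of Unigene0068759 overlap without treatment and part at 24 h and at 72 h.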

How the data were processed

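Leaf RNA of 18 libraries was compared, with 6 at 24 h of PEG as the comparison reported. The authors deposited 1 table that holds, per the file headers, whole-number counts and FPKM for each library. Deposited FPKM values follow from the counts: in 682 highly counted unigenes, lengths computed from both spread by no more than 0.017% across libraries. Among tools, the submitters' processing notes list RSEM 1.3.1, cutadapt 1.18 and bcl2fastq 2.0.1 but no roles, so the counts may be rounded estimates, and how reads of near-identical unigenes were shared out is not known. Assembler, assembly and strand: not given in the sources used here.

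In R 4.3.3, filterByExpr kept 30895 of 81470 unigenes and TMM scaled the libraries. All 18 went into 1 quasi-likelihood model (edgeR 4.0.16) with a mean for each of 6 groups, which leaves 12 residual degrees of freedom. P-values were adjusted by Benjamini-Hochberg within each comparison, with a threshold of 0.05. Log2 CPM for correlations adds a prior count of 2. Replicates at 24 h were all distinct (chi-square per unigene 13.2 to 39.8), so each library counted once. The named unigenes passed the threshold with no overlap, at least 10 counts in each 24 h library and a mean of 5 CPM in 1 origin, and had in each direction the largest fold change or the highest mean CPM. Alternatives were DESeq2 1.42.0 (size factors and Wald test), limma-voom (limma 3.58.1), no filter, the 6 libraries alone, a minimum of 2-fold, a replicate block, and each library left out in turn with the filter applied anew. The fit was tested on simulated data. The comparison, classes and rules were chosen with earlier results of these data known, and the joint class of 4- to 16-fold and its refits were formed after its values were seen.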

Additional observations from a re-analysis of the deposited data

Results flagged for a closer look

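The gap between Iceland and America leaves at 24 h differed from the gap without treatment in 266 unigenes, by a test of the difference itself (edgeR). That count was 88, 105 and 124 without Iceland 24 h replicates 1, 2 and 3, and 122, 80 and 161 without America 24 h replicates 1, 2 and 3. It was 114, 87 and 952 without untreated Iceland replicates 1, 2 and 3, and 437, 29 and 143 without untreated America replicates 1, 2 and 3.

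Between 24 h and 72 h the gap differed in 25 unigenes by the same kind of test. That count was 2, 10 and 5 without Iceland 24 h replicates 1, 2 and 3, and 8, 6 and 19 without America 24 h replicates 1, 2 and 3. It was 1, 7 and 66 without Iceland 72 h replicates 1, 2 and 3, and 3, 1 and 0 without America 72 h replicates 1, 2 and 3. In the refit with 0 calls by edgeR, 3069 unigenes had an unadjusted p under 0.05, and over all libraries limma-voom called 8 and the DESeq2 Wald test 491.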

How the results depend on the processing

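The fold changes of the 4 named unigenes kept their sign in the 48 refits that were run, of which 36 kept the call and 12 lost it. Fitted to the 6 libraries alone, 2842 unigenes passed at 24 h, 945 of them lower in Iceland; against a minimum of 2-fold, 972 passed, 718 higher and 254 lower, with 491 in the class 4- to 16-fold higher. Leaving out single libraries gave 2198 to 3156 calls at 24 h, 1163 to 1932 higher and 913 to 1335 lower, 593 to 945 in the class 4- to 16-fold higher, with 608 to 894 of the reported 1249 called at 72 h and 35 to 87 called untreated, 988 to 1694 calls shared with 72 h and 255 to 669 shared with untreated leaves. In the refits with 608 and 894, 3.48% and 7.62% of all tested unigenes were higher in Iceland at 72 h. In those with 35 and 87, 1.24% and 3.79% were higher untreated. For the gap against untreated leaves the refits gave 29 to 952 calls, and for the gap against 72 h 0 to 66. The gap tests called 585 and 208 with no filter, 69 and 8 with limma-voom, and 1481 and 491 with the DESeq2 Wald test, which also gave 890 calls shared with untreated leaves; the cause was not tested. Unigenes present in Iceland and absent in America were 139 from 0.5 CPM, 25 from 2 CPM and 158 with up to 3 counts taken as absent, and 64 to 142 with a library left out. Those present in America and absent in Iceland were 112, 14, 96 and 53 to 90.

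The labels do not state if replicate numbers pair the origins. Same-numbered libraries at 24 h correlated at -0.0305, 0.0346 and -0.0278 in their deviations from the group means. Differently numbered ones correlated at -0.0589 to 0.0739. With 3 libraries in a group such values cannot decide if the numbers are paired. With the replicate block, 3775 unigenes passed at 24 h, and the gap tests called 148 against untreated leaves and 22 against 72 h. For the share of counts in the 100 most counted unigenes the refits gave differences of 0.716 to 3.11 points, and for unigenes with a count at equal depth 366 to 1410. A unigene without counts is limited to 0.23 to 0.306 CPM in a 24 h library.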
